A study of Canis lupus familiaris with 4 samples.

Results

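The genes described here are BIRC5 and ASPM, which act in mitosis, BRCA1 and BRCA2, which act in DNA repair, and the tumour driver gene MYC. They were taken as the probes whose accession is the dog RefSeq transcript of one of these genes. That gave 5 of the 1045 genes named in this way, with 1 probe each, among 43603 probes on the array, of which 1648 carry a gene name. Each probe was printed as a single spot, and all 5 were well above background in both grades on all 4 arrays.

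The samples were RNA labelled as canine mammary tumours of grade 3, the most malignant, and of grade 1, the less malignant. Both RNAs were hybridised together to each of 4 two-colour arrays, grade 3 in the Cy5 dye and grade 1 in Cy3 on 2 of them and the dyes exchanged on the other 2. The protocols of the same labels describe cultured cancer cells with sorted monocytes layered on them for at least 72 h, after which stained cancer cells and unstained macrophages were sorted apart, so whether the RNA came from tumours or cells is not settled. No breed, age, treatment or number of dogs is given, and it is unstated whether any arrays had the same extract. The p-values of the main fit therefore measure only the spread between arrays of the same dye orientation on 1 slide, which may be technical. That fit takes out the gap between orientations. Log2 ratios of all tested probes correlated at 0.91 to 0.94 within an orientation and at 0.69 to 0.84 between orientations.

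Survivin, the product of BIRC5, sits in the complex that directs chromosome segregation and cytokinesis and belongs to the inhibitor of apoptosis family. The ASPM protein organises the poles of the mitotic spindle. Both genes are switched on as cells approach division, and mitotic count is one of the features scored when mammary tumours are graded, so both would be expected higher in grade 3. BRCA1 and BRCA2 act in homologous recombination, the repair of broken DNA from an intact copy, and inherited loss of either raises the risk of breast cancer in women. MYC encodes a transcription factor that drives growth and division and is often amplified in human tumours, which would again be expected to place it higher in the higher grade. For the repair genes no direction was assumed.

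Relative to the other probes of the same array, 4 of the 5 genes were lower in grade 3 and none was higher at an adjusted p under 0.05, though centring on spike-in controls turned ASPM, BRCA1 and MYC higher. A gene past that threshold is named as called below. BIRC5 differed most (1.82-fold lower), followed by ASPM (1.38-fold), MYC (1.28-fold) and BRCA1 (1.20-fold), while BRCA2 was not called. So many probes were called that this count says little about these genes: of 35412 tested probes 61.7% were called, 30.5% lower and 31.1% higher, and of 925 tested named genes 70.2% were called, 46.1% lower and 24.1% higher. The median log2 fold change was -0.36 over the 5 genes, 0.0045 over all tested probes and -0.093 over named genes. The arrays compare both RNAs as labelled mixtures, in which fewer cells of a type and less RNA per cell cannot be told apart.

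The direction depends on what the ratios are set against. The 10 spike-in control probes, which detect RNA added in known amounts, had log2 ratios of grade 3 over grade 1 averaging between -0.78 and -0.45 per array. Centring each array on these probes takes their expected mean log2 ratio as 0, while the amounts added are not given here. This centring moved the median of all probes to 0.67, with 91.1% of probes called higher and 2.59% lower. On that scale ASPM, BRCA1, BRCA2 and MYC were called higher in grade 3, with log2 fold changes of 0.21, 0.40, 0.56 and 0.31, and BIRC5 had -0.19 (adjusted p = 0.0603). This fit gave all 5 genes the same SE, 0.10, where the main fit gave them 0.049 to 0.063. Calls with spike-in centring therefore rest on a spread shared by the genes, not on each gene's own. They are not tests of the same kind as those of the main fit. Which scale is closer to RNA per cell was not tested. Every direction below is relative to the other probes of the array, and the fitted values of ASPM, BRCA1, BRCA2 and MYC below all have the opposite sign with spike-in centring.

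**Figure D1:**
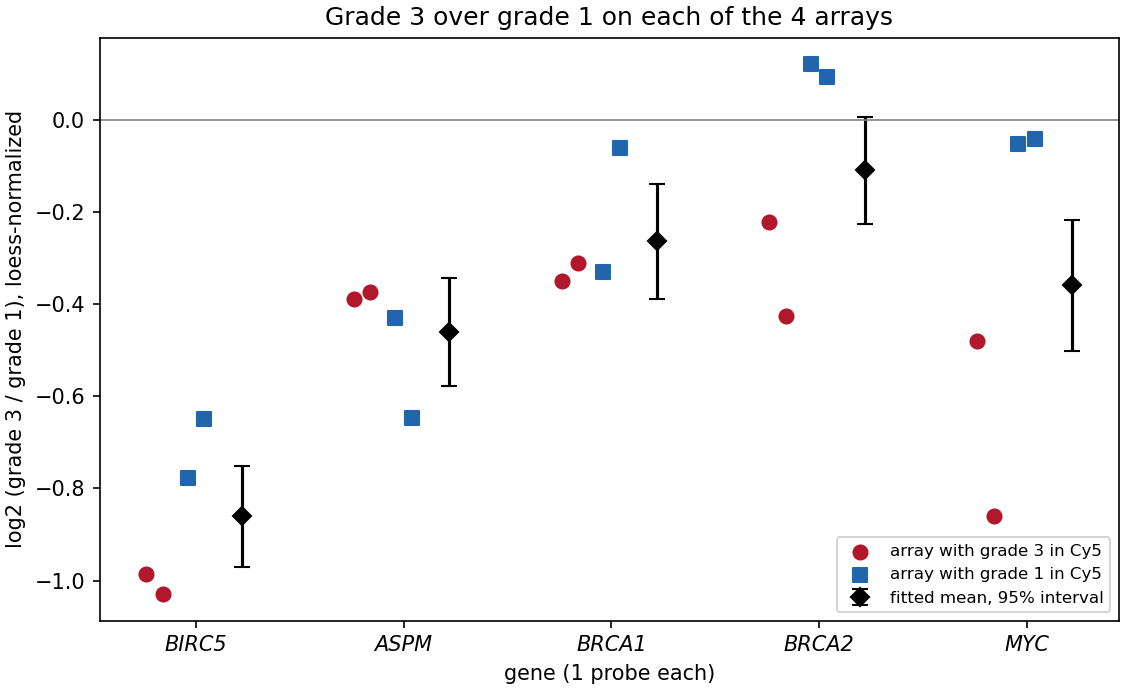
Loess-normalized log2 ratio of grade 3 over grade 1 (vertical axis) for each gene (horizontal axis). Circles are the 2 arrays with grade 3 in Cy5, squares the 2 with grade 1 in Cy5, and diamonds the fitted mean with its 95% interval. BIRC5 lies lowest, between -1.03 and -0.65, and BRCA2 lies below 0 on the circles and above 0 on the squares. With spike-in centring the fitted means of all genes but BIRC5 lie above 0.

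In what follows, values by array are given in the order replicate 1 and 2 with grade 3 in Cy5, then replicate 1 and 2 with grade 1 in Cy5. Levels are log2 intensities of a single channel after normalization. A level can be compared between grades for a probe, not between probes.

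BIRC5 (NM_001003348) had levels of 11.15, 11.23, 11.35 and 11.49 in grade 3, against 12.14, 12.26, 12.13 and 12.14 in grade 1. Every grade 3 level lay below every grade 1 level, a separation in that direction that 21.3% of all tested probes and 35.8% of named genes had. The log2 ratios were -0.99, -1.03, -0.78 and -0.65. The ratio was thus further from 0 on both arrays with grade 3 in Cy5 (mean -1.01) than on both with grade 1 in Cy5 (mean -0.71), and negative on all 4. Levels averaged 11.31 ± 0.15 in grade 3 and 12.17 ± 0.061 in grade 1 (SD, n = 4 arrays). The fitted log2 fold change was -0.86 ± 0.049 (SE, limma adjusted p = 3.56e-07), 1.82-fold lower with a 95% interval from 1.68 to 1.96. Of all tested probes 942, or 2.66%, had a fold change as low or lower, and of tested named genes 9.19%.

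The unnormalized signals show how much of this depends on balancing the dyes. On replicate 1 with grade 3 in Cy5, BIRC5 read 3214.5 intensity units in grade 3 and 3022.5 in grade 1, on an array whose median spot read 382 units in Cy5 and 206 in Cy3. On replicate 1 with grade 1 in Cy5 it read 2859 units in grade 3 and 4197 in grade 1, where the median spot read 307 units in Cy3 and 274 in Cy5. The grade 3 signal was the higher on the first of these arrays before normalization and the lower on both after it. On both replicate 2 arrays the grade 3 signal was already the lower before normalization. It read 2905 units against 3451 with grade 3 in Cy5, and 3414 against 4399 with grade 1 in Cy5. Median centring in place of loess gave BIRC5 a log2 fold change of -0.62, still called lower.

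ASPM (NM_001197076) had levels of 10.32, 10.23, 10.28 and 9.90 in grade 3, against 10.71, 10.60, 10.71 and 10.54 in grade 1. The grades did not overlap, as for 21.3% of all tested probes and 35.8% of named genes in that direction. The lowest grade 3 level came from replicate 2 with grade 1 in Cy5. The log2 ratios were -0.39, -0.37, -0.43 and -0.65, the first 3 of them close together. Levels averaged 10.18 ± 0.19 in grade 3 and 10.64 ± 0.084 in grade 1 (SD, n = 4). The fitted log2 fold change was -0.46 ± 0.052 (limma adjusted p = 4.14e-05), 1.38-fold lower with an interval from 1.27 to 1.49. As low or lower were 9.07% of tested probes and 19.9% of tested named genes. ASPM had the smaller gap between dye orientations of the pair, with means of -0.38 with grade 3 in Cy5 and -0.54 with grade 1 in Cy5.

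Both mitosis genes were therefore lower in grade 3 relative to the array's other probes, though ASPM was called higher with spike-in centring. This is against the direction expected from grading, which holds for tumour tissue, and whether the RNA came from tumours is not settled. BIRC5 and ASPM were called lower under 14 of 15 alternative settings each, spike-in centring being the exception. These are not 15 separate checks. Changing the filter on dim probes, adding the replicate number or dropping the term for the dye left both fold changes as they were. Averaging a gene's probes could not alter a gene with 1 probe, and the authors' value table repeated the scanner software's processed signals. Without spike-in centring BIRC5 ranged from -0.89 to -0.62 and ASPM from -0.51 to -0.24 on the log2 scale.

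**Figure D2:**
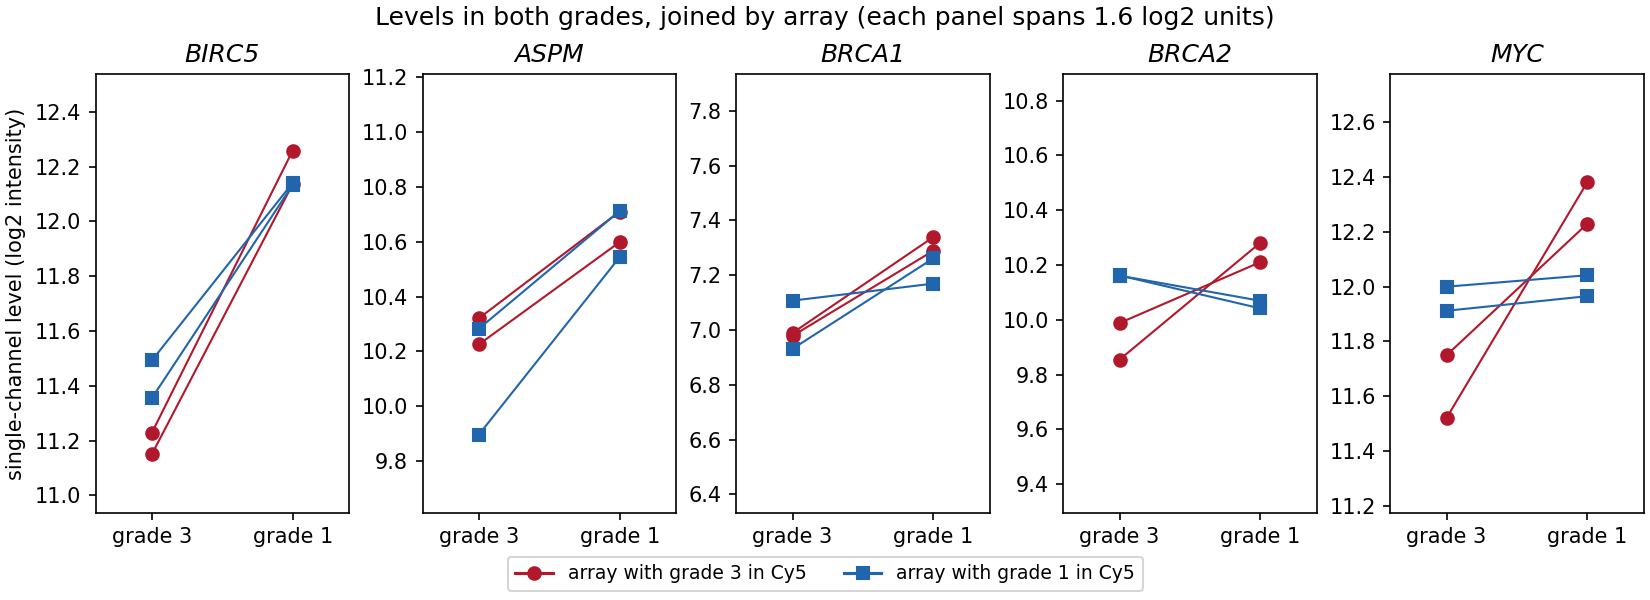
Single-channel level (log2 intensity, vertical axis) of each gene in grade 3 and grade 1, with a line joining the grades on each array. Circles mark arrays with grade 3 in Cy5 and squares those with grade 1 in Cy5. For BIRC5, ASPM and BRCA1 the grades do not overlap, while for BRCA2 and MYC they do. Levels were separated with grade 3 lower for 21.3% of all tested probes and 35.8% of named genes. These levels are relative to the array's probes, and with spike-in centring the fitted log2 fold change of every gene but BIRC5 lies above 0.

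BRCA1 (NM_001013416) was read at low signal. Its unnormalized signals lay between 110.5 and 142.5 units, over local backgrounds between 28 and 46 units. Levels were 6.99, 6.98, 6.93 and 7.11 in grade 3, against 7.34, 7.29, 7.26 and 7.17 in grade 1, so the grades did not overlap. The same held in that direction for 21.3% of all tested probes and 35.8% of named genes, and here 7.11 lay close to 7.17. The log2 ratios were -0.35, -0.31, -0.33 and -0.062, and replicate 2 with grade 1 in Cy5 stood apart from the other 3. Levels averaged 7.00 ± 0.075 in grade 3 and 7.26 ± 0.071 in grade 1 (SD, n = 4). The fitted log2 fold change was -0.26 ± 0.056 (limma adjusted p = 0.00231), 1.20-fold lower with an interval from 1.10 to 1.31. Of tested probes 18.8% were as low or lower, and of tested named genes 33.2%.

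At so low a signal the treatment of the background mattered. With the processed signals of the scanner software the log2 fold change of BRCA1 was -0.54 (adjusted p = 0.00271), and with local backgrounds that the scanner software marked as outliers kept as measured it was -0.12 and not called (adjusted p = 0.281), a setting under which 12.5% of all probes were called lower and 6.57% higher. Without replicate 2 with grade 1 in Cy5 it was -0.33, and without replicate 1 of that orientation -0.20, both called.

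BRCA2 (NM_001006653) had levels of 9.99, 9.85, 10.16 and 10.16 in grade 3, against 10.21, 10.28, 10.04 and 10.07 in grade 1. The grades overlapped. Its log2 ratios of -0.22, -0.43, 0.12 and 0.092 took opposite signs in the dye orientations, below 0 where grade 3 carried Cy5 and above 0 where it carried Cy3. Levels averaged 10.04 ± 0.15 in grade 3 and 10.15 ± 0.11 in grade 1 (SD, n = 4). The fitted log2 fold change was -0.11 ± 0.052 (limma adjusted p = 0.0931), with an interval from -0.23 to 0.0070. A fall of up to 1.17-fold and no change both lie in that interval, so the comparison does not settle a direction. BRCA2 was not called under 13 of 15 alternative settings, and was called higher with spike-in centring. The only lower call came without replicate 1 with grade 3 in Cy5, which leaves 1 array in that orientation. In that fit BRCA2 had -0.16 and was called lower, beside 29.8% of probes lower and 30.6% higher. Median centring turned it to 0.097, not called.

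MYC (NM_001003246) had levels of 11.75, 11.52, 11.91 and 12.0 in grade 3, against 12.23, 12.38, 11.97 and 12.04 in grade 1. The grades overlapped, and both grade 3 levels read in Cy3 lay close to the grade 1 levels of the same arrays. The log2 ratios were -0.48, -0.86, -0.053 and -0.042. All 4 were negative, as for 28.3% of tested probes and 42.5% of tested named genes. The difference came almost wholly from the arrays with grade 3 in Cy5, which averaged -0.67, against -0.048 on the others. Levels averaged 11.80 ± 0.21 in grade 3 and 12.15 ± 0.19 in grade 1 (SD, n = 4). The fitted log2 fold change was -0.36 ± 0.063 (limma adjusted p = 0.00077), 1.28-fold lower with an interval from 1.16 to 1.42.

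This fit takes out a constant dye difference per probe, and MYC had the largest of the 5 genes, -0.31 on the log2 scale. Only 3.58% of tested probes had a dye difference as large, against 12% for the -0.22 of BRCA2, 26.2% for the -0.15 of BIRC5, 52.3% for the 0.079 of ASPM and 58.3% for the -0.067 of BRCA1. Without the dye term, where 22% of probes were called lower and 22.5% higher, MYC was not called (adjusted p = 0.0787). Nor was it with median centring (-0.11, adjusted p = 0.153), with 25% of probes lower and 44.1% higher, or with marked local backgrounds as measured (-0.40, adjusted p = 0.0522).

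**Figure D3:**
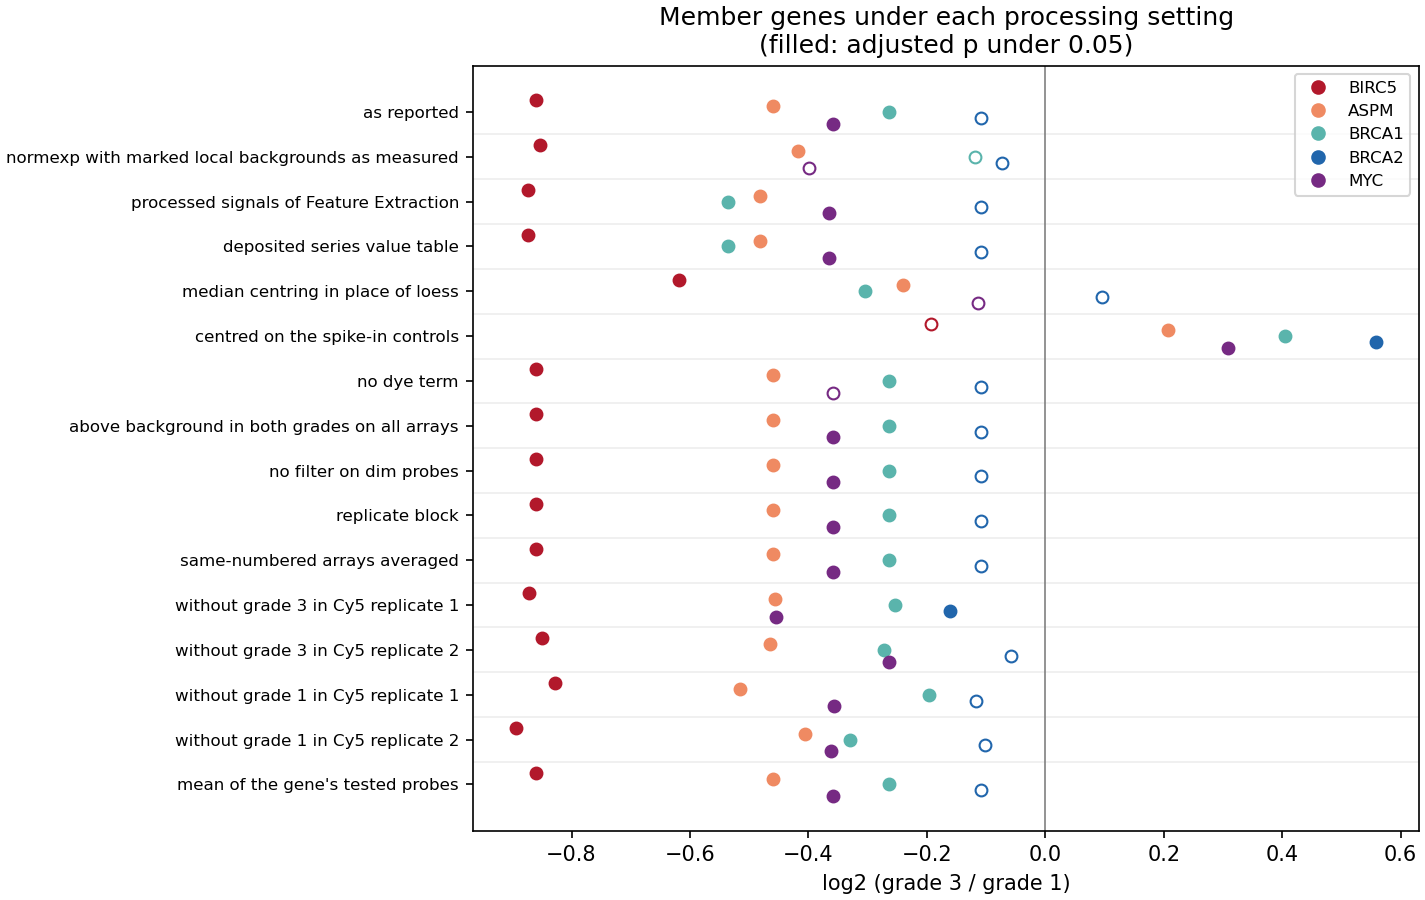
Log2 fold change of grade 3 over grade 1 (horizontal axis) of each gene under the reported processing and 15 alternatives (vertical axis), filled where the adjusted p is under 0.05. BIRC5 is the lowest in each setting and stays between -0.89 and -0.62 except with spike-in centring, where it is -0.19 and drawn unfilled, and the other genes lie to the right of 0.

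The rest of the same pathways was described from lists of 85 genes of mitosis and the cell cycle, 88 of DNA replication and repair, 64 oncogenes and growth signalling genes, 43 tumour suppressors, 46 apoptosis genes and 44 MYC targets. Few of these had a RefSeq probe, and a gene with several probes is given by its brightest. Fold changes for these genes are log2 grade 3 over grade 1 with SE over 4 arrays. Their counts stand beside 46.1% of tested named genes called lower and 24.1% higher. Of all tested probes 2.59% were lower and 91.1% higher with spike-in centring, and 25% and 44.1% with median centring. With marked local backgrounds as measured 12.5% were lower and 6.57% higher. A count near these shares says little about its list.

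Of 6 tested mitosis and cell cycle genes 4 were lower and none higher around a median of -0.28, and with spike-in centring 5 were called higher and 0 lower. Beside BIRC5 and ASPM the lower genes were CDKN1B, which encodes the cell cycle inhibitor p27 (-0.33 ± 0.051), and MCPH1, which encodes microcephalin, a chromosome condensation and checkpoint protein (-0.23 ± 0.046, and -0.65 by its other probe). Only BIRC5 and ASPM among these 4 genes promote division, and both CDKN1B and MCPH1 lost their call with median centring (-0.12 and -0.0014) and were higher with spike-in centring (0.34 and 0.44). CCND1, the cyclin D1 gene, had 0.14 ± 0.072 (adjusted p = 0.114). With median centring the list had 2 genes higher and 2 lower, around a median of -0.063.

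Among 8 replication and repair genes 2 were higher, 1 was lower and 5 were not called, around a median of -0.060, and with spike-in centring 8 were called higher and 0 lower. BRCA1 was the lower gene. APEX1, a base excision repair enzyme gene, rose 1.51-fold (0.60 ± 0.063), and PRKDC, the catalytic subunit gene of the end-joining kinase DNA-PK, rose as well (0.32 ± 0.048), but with marked local backgrounds as measured none of the 8 genes was called. The damage kinase gene ATM had -0.087 ± 0.061 (adjusted p = 0.24). With median centring 4 of the 8 genes were higher and 1 lower, around a median of 0.14.

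The 20 oncogenes and growth signalling genes had 7 lower and 5 higher members around a median of -0.0076, the other 8 passing in neither direction, and with spike-in centring 19 were higher and 0 lower. Beside MYC the lower genes included FLT3, a blood cell receptor kinase gene (-0.47 ± 0.05), HGF, the ligand gene of the MET receptor (-0.40 ± 0.046), RAC1 (-0.39 ± 0.057) and RET (-0.37 ± 0.058, while its other probes had 0.0070 and 0.042). These 4 and MYC turned positive with spike-in centring. The genes that rose most were IGF2, a fetal growth factor gene (1.39 ± 0.078, 2.63-fold), and MET itself (1.34 ± 0.05, 2.54-fold, and 1.24 by its other probe), followed by FGFR2 (0.43 ± 0.057). With marked local backgrounds as measured 2 genes of the list were lower and 2 higher, and the calls of MET (0.85, adjusted p = 0.0561), FLT3 (-0.26, adjusted p = 0.108), HGF (-0.28, adjusted p = 0.0557) and RET (-0.25, adjusted p = 0.136) were lost. Median centring gave 11 higher and 4 lower genes, around a median of 0.18.

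Tumour suppressors numbered 11, with 3 lower, 2 higher and a median of -0.090, against 1 lower and 10 higher with spike-in centring. CDKN2B, which encodes the cyclin kinase inhibitor p15, was 2.28-fold lower (-1.19 ± 0.048), and still called lower with spike-in centring, though not with marked local backgrounds as measured (-0.71, adjusted p = 0.0702). MEN1 (0.55 ± 0.048) and FHIT (0.35 ± 0.05) rose, FHIT without a call when marked local backgrounds were kept (0.25, adjusted p = 0.104), where the list had 1 lower and 1 higher gene. BRCA1 was the third lower gene beside CDKN2B and CDKN1B. Median centring gave 5 higher and 2 lower genes, around a median of 0.097.

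Of 19 apoptosis genes 10 were lower and 4 higher around a median of -0.19, while with spike-in centring 4 were lower and 13 higher. BIRC5 shared its direction with BIRC3, another inhibitor of apoptosis gene (-0.92 ± 0.048, and -0.20 by its other probe), while BIRC2 had 0.018 ± 0.049 (adjusted p = 0.773). The death ligand gene TNFSF10 (-1.19 ± 0.049), the caspase genes CASP8 (-1.03 ± 0.051) and CASP12 (-0.97 ± 0.051) and PMAIP1, which encodes the cell death protein NOXA (-0.79 ± 0.049), were lower too. BCL2 (0.95 ± 0.056) and BCL2L2 (0.88 ± 0.053), which protect cells from death, rose 1.93-fold and 1.84-fold. With marked local backgrounds as measured the counts were 5 lower and 2 higher, and BCL2L2 (0.54, adjusted p = 0.0563), CASP8 (-0.59, adjusted p = 0.0806) and PMAIP1 (-0.52, adjusted p = 0.0663) were not called. Median centring gave 8 higher and 7 lower genes, around a median of 0.021.

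Of 7 MYC target genes 3 were higher and 2 lower around a median of 0.089 (7 higher with spike-in centring), while MYC itself was lower on the same scale. The glycolysis enzyme gene GAPDH (0.63 ± 0.053), APEX1 and the glucose transporter gene SLC2A1 (0.21 ± 0.058, called neither by the mean of its probes nor without a dye term nor with marked local backgrounds as measured) rose. TFRC, the transferrin receptor gene (-0.45 ± 0.057), and NME1 (-0.28 ± 0.048) were lower, and both were higher with spike-in centring (0.22 and 0.38). NME1 was not called with median centring (-0.054, adjusted p = 0.371) or without a dye term (adjusted p = 0.0535). Median centring gave 5 higher genes and 1 lower in this list, around a median of 0.26.

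**Figure D4:**
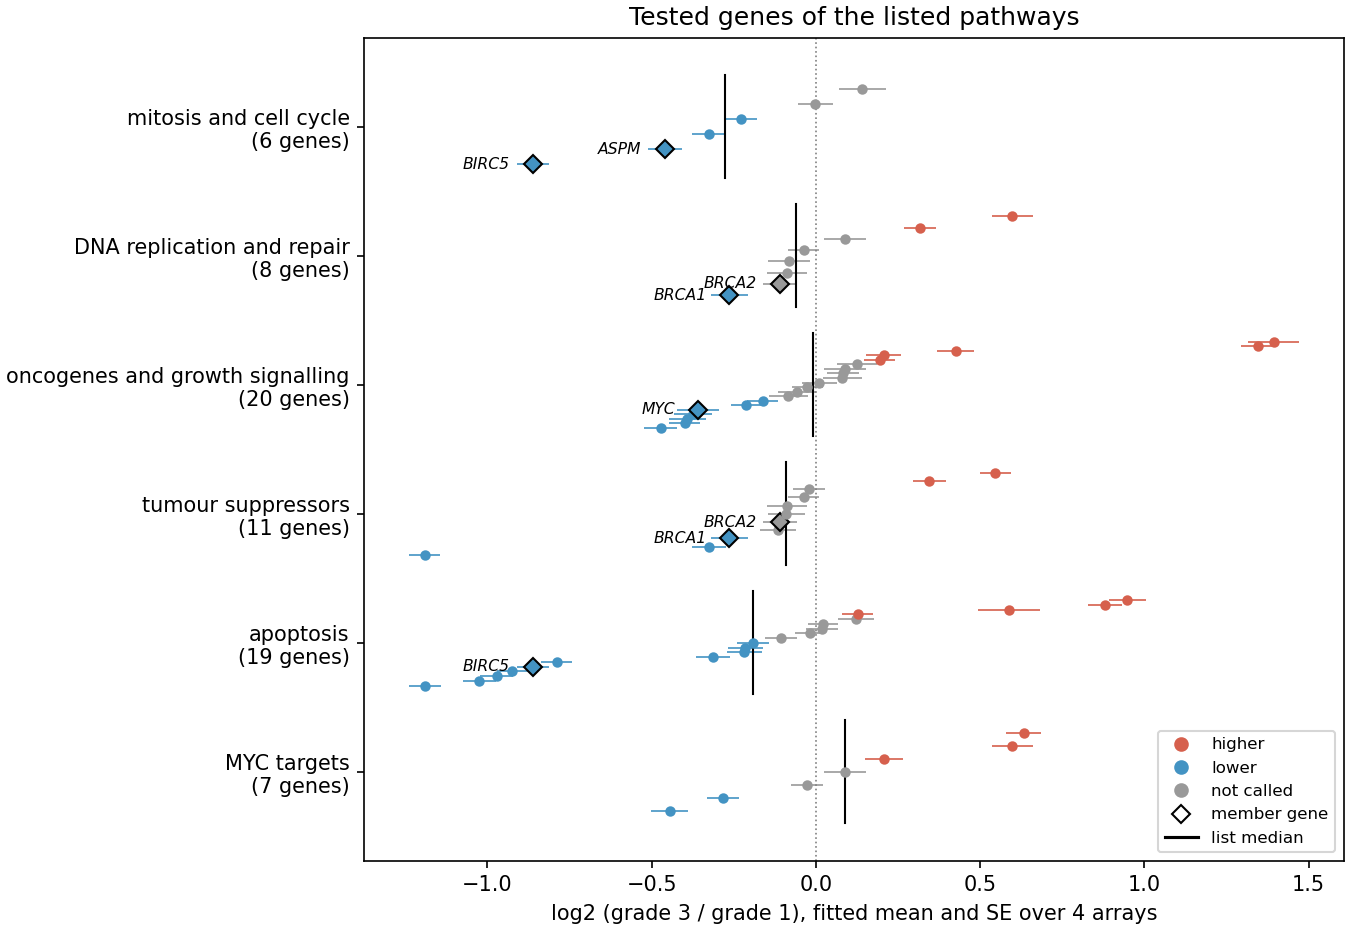
Fitted log2 fold change of grade 3 over grade 1 with its SE over 4 arrays (horizontal axis) for the tested genes of each list (vertical axis). Diamonds are the 5 genes described here, colours give the call and the black bar is the list median, which lies between -0.28 for mitosis and 0.089 for MYC targets. With spike-in centring the 6 medians lie between 0.39 and 0.76, and with median centring between -0.063 and 0.26.

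Markers of other cell types moved with the grade as well, beside 46.1% of tested named genes called lower and 24.1% higher. Of 10 macrophage and monocyte markers 8 were lower and 1 was higher, around a median of -0.86. Their summed level ranged from 63501 to 72118 intensity units in grade 3 and from 116700 to 128702 in grade 1. Such a sum is weighted to the brightest probes of its list and is not an amount of cells. Of 8 T and NK cell markers 7 were lower (1244 to 1291 units in grade 3, 1736 to 1901 in grade 1), and FOXP3 was above background in grade 3 on 1 of 4 arrays. Of 6 fibroblast and matrix markers 5 were lower (353167 to 457786 units in grade 3, 553429 to 641121 in grade 1). Of 5 endothelial markers 4 were lower and 1, SELE, was higher at 0.33 (37327 to 44879 units in grade 3, 47280 to 55814 in grade 1).

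Mammary epithelial and muscle markers had more members higher than lower, beside 24.1% of tested named genes higher and 46.1% lower. Of 8 mammary epithelial markers 4 were higher and 2 lower (368483 to 480205 units in grade 3, 47183 to 104103 in grade 1), and the milk protein genes CSN2 (2.81) and LALBA (2.50) had the largest log2 fold changes of the list. Their probes were also its brightest, with mean levels of 18.27 and 16.41 in grade 3 and 15.45 and 13.91 in grade 1. The sums therefore mostly follow these milk protein genes. Of the other markers TFF3 (1.86) and MUC1 (1.18) were higher, and TFF1 (-0.19) and the progesterone receptor gene PGR (-0.57) were lower. The luminal genes CLDN3 (0.11) and ERBB2 (-0.026) were not called. All of these were above background in both grades on all arrays. Of 7 skeletal muscle markers 6 were higher and 1, DES, was lower at -0.14 (19800 to 23542 units in grade 3, 3521 to 4368 in grade 1). Apart from FOXP3, no tested marker fell below background on any array. With spike-in centring 5 of the 10 macrophage markers were still lower, while 5 of the 8 T and NK cell markers were higher. On that scale 2.59% of all tested probes were lower and 91.1% higher. The fibroblast and endothelial markers then had 2 higher and 1 lower each, around medians of 0.11 and 0.14. With marked local backgrounds as measured none of the T and NK cell markers was called, beside 12.5% of probes lower and 6.57% higher. The part of these cell types in the lower values of BIRC5, ASPM, BRCA1 and MYC was not tested.

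The named genes whose ratios over the 4 arrays came closest to each gene were found by Euclidean distance among 893 genes above background in both grades. The nearest to BIRC5 were TFPI, a coagulation inhibitor gene (distance 0.11), and MMP9, a matrix protease gene (0.13). For ASPM they were RAB27A and the drug efflux pump gene ABCB1 (0.14 each), and for BRCA1 BDKRB2, a bradykinin receptor gene (0.14), and SSR2 (0.18). BRCA2 had the closest neighbours, ACTR1A (0.063) and CDC42SE1 (0.065), both likewise below 0 where grade 3 was in Cy5 and above 0 where it was in Cy3. MYC was nearest to DAG1 and ID3 (0.19 each), which also lay nearer to 0 on the arrays with grade 1 in Cy5. None of the 5 was among the 2 nearest of another, and a distance over 4 arrays in 2 dye orientations takes in dye differences as well as grade.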

How the data were processed

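The scanner software was Agilent Feature Extraction, named with version 10.7.3.1 in the submitters' processing notes. The deposited median signals and local backgrounds are intensity values on a linear scale, and the deposited processed signals are intensity values after background subtraction, detrending and dye normalization, per the file headers. The authors' value table holds log10 ratios, which ran as grade 3 over grade 1 and differed from the deposited LogRatio columns, also log10, by at most 4.99e-06 after turning the sign of the swapped arrays. Its scale and direction are thus known, and its column medians were 0.

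The analysis used limma 3.58.1 (R 4.3.3). Median signals were used, because the scanner files hold no mean signal. Backgrounds were corrected by normexp (offset 50), local backgrounds marked as outliers (151 to 2352 per array and channel, the largest 309565 units) being set to that array's median background in the same channel. Arrays were normalized by loess with control spots at weight 0, spots marked as outliers (11 to 39 per array) were left out, and no spot was saturated. In each array and channel 80.6% to 84.5% of spots exceeded background, and with 4 arrays the precision is limited by their number. The two-sided limma test with a grade and a dye term (degrees of freedom 2 residual, 7.50 prior) covered 35412 probes that exceeded background throughout a grade, and p-values were adjusted over them by Benjamini-Hochberg. The test was checked on simulated data. Levels come from Aquantile normalization.

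Probes were named by RefSeq accession (assembly UU_Cfam_GSD_1.0). The array was designed on canFam2, so no coordinates are given. The genes and lists were chosen with earlier results of these data known, and 1 listed gene is not reported here. Named are the 5 genes, per list up to 8 called genes with the smallest p and any gene alone in its direction, and the 2 nearest genes to each of the 5. A few further list genes are given as values beside them (CCND1, ATM and BIRC2), chosen after their values were seen.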

Additional observations from a re-analysis of the deposited data

Results flagged for a closer look

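The log2 ratios of the 4 arrays were searched in 30 genes, the 5 genes and those named from the pathway lists, for an array standing apart by Dixon's criterion at 95%. It was met by 2 genes, and with 4 independent values chance alone meets it in about 1 of 20. The gap to the nearest array made up 0.863 of the range for BRCA1, whose ratio was -0.062 on replicate 2 with grade 1 in Cy5 and -0.35, -0.31 and -0.33 elsewhere. It made up 0.937 of the range for TFRC, at -0.66 on replicate 1 with grade 1 in Cy5 and at -0.39, -0.37 and -0.37 elsewhere.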

How the results depend on the processing

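The 11030 higher and 10802 lower probes stayed within 1.5 times under all alternatives but 2: marked backgrounds kept as measured gave 2328 higher and 4418 lower, and spike-in centring 32260 and 917. The lower share of calls was 49.5%, and 65.5%, 36.1% and 2.76% with marked backgrounds, median centring and spike-in centring. Leaving out an array gave 9094 to 10971 higher and 9005 to 10798 lower. Spike-in centring, which moves every probe, turned ASPM, BRCA1, BRCA2 and MYC to 0.21, 0.40, 0.56 and 0.31, left BIRC5 at -0.19 without a call, and turned MCPH1, CDKN1B, FLT3, RET, HGF, RAC1, NME1 and TFRC to 0.44, 0.34, 0.20, 0.29, 0.27, 0.28, 0.38 and 0.22. With marked backgrounds as measured the calls of BRCA1 (-0.12) and MYC (-0.40) were lost, leaving 2 of the 5 genes called lower beside 12.5% of probes. Median centring ended the call of MYC (-0.11) and turned BRCA2 to 0.097, and a fit with no dye term ended that of MYC (-0.36). The cause was not tested. Over the fits without an array BIRC5 ranged from -0.89 to -0.83, ASPM from -0.51 to -0.41, BRCA1 from -0.33 to -0.20, BRCA2 from -0.16 to -0.058 and MYC from -0.45 to -0.26. The replicate block, with the labels' number as a term, gave 10922 higher and 10640 lower probes and changed no call of the 5 genes. Deviations of same-numbered arrays correlated at -0.091, and nothing says that the numbers pair samples. BRCA1, with signals of 110.5 to 142.5 units, is the gene that background limits most.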

Other observations

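VEGFA, the main angiogenic growth factor gene, was in the oncogene list and is given here after its values were seen. Its brighter probe gave -0.058 ± 0.057 (log2, limma adjusted p = 0.404), while its other probe, dimmer by its mean level, had -0.79 ± 0.046 and was called lower. PDGFRB likewise had 0.083 by its brighter probe, not called, and -0.16 by the other, called lower. CLU, the clusterin gene of the apoptosis list, was called higher by all 5 of its probes, with log2 fold changes between 0.39 and 0.72, and GAPDH by all 7, between 0.53 and 0.65. PDGFRB, CLU and GAPDH's other probes were likewise chosen after their values were seen. All are relative to the other probes of the array.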
